A study of Zea mays with 2 samples.

Results

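Oxylipins are signals and defence compounds that plants make from polyunsaturated fatty acids. A lipoxygenase (LOX) adds oxygen at carbon 9 or carbon 13 of the fatty acid. On the 13 side, allene oxide synthase (AOS), allene oxide cyclase (AOC) and 12-oxo-phytodienoic acid (OPDA) reductase (OPR) lead to jasmonate, a hormone of wounding, defence and, in maize, of tassel sex determination, while hydroperoxide lyase (HPL) makes green leaf volatiles. The 9 side gives other oxylipins that are known above all from the contact of maize with fungi and nematodes. The genes described here are those named lox, opr, aos or hpl with a number. They were chosen by name and comprised 12 probe sets of 9 genes among 17621 maize probe sets, of which 1452 were paired with a single gene.

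The mutant was D11, a dominant dwarf that arose in a cross of the inbred lines Mo17 and HN06 and was kept by backcrossing to Mo17, B73 and W22. The control was the wild type (WT), which the labels give as the inbred line Mo17. Stems of both genotypes were taken when the tassel emerged, and total RNA of each was put on 1 Affymetrix Maize Genome Array. The nuclear background of the D11 plants on the array and the number of plants per sample are not given in the sources used here, so effects of the mutation and of donor chromosome segments cannot be told apart. As there was 1 array per genotype, no difference below has a replicate check, no error can be given and no test was made. Ratios are D11 over WT, so that a negative log2 ratio means a lower signal in D11. Since bulk stems were used, fewer cells of a type and less RNA per cell cannot be told apart.

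The signals are MAS 5.0 intensities on a linear scale, with a median of 190.6 in D11 and 165.4 in WT. The brightest of 23 Tag and TrpnX probe sets, controls without a target in maize RNA, stood at 24.69 in D11 and 27.62 in WT, and these values served as the control level of each array. Spiked bacterial transcripts, which carry technical error alone, had log2 ratios with an SD of 0.20 over 63 probe sets. For 128 maize genes with several probe sets above the control level in both arrays, the log2 ratios of probe sets of the same gene lay a median of 0.29 apart, and 0.79 apart at the 90th percentile. The 6 probe sets of stem and secondary wall genes were above the control level in both samples, with signals from 453.0 to 7010 in D11 and from 298.7 to 6585 in WT. Of these, 3 were higher in D11 (CCR, ccr2 and BM1, with CCR at 1534 in D11 and 428.2 in WT) and 3 were lower (cesa10, cesa11 and CesA12). Photosynthesis genes of green tissue were also present, such as rbcS with 4807 in D11 and 4514 in WT. The summed signal of the 16 leaf probe sets of 9 genes was 29240 in D11 and 31130 in WT. Of the 16, 12 were lower in D11, against 47.9% of all probe sets, and several of these were repeat probe sets of PPDK and lhcb6. The gene pep1, for the C4 carboxylase, had 13.41 in D11, not above the control level, and 47.53 in WT. This gives a bound of at least 1.925-fold lower in D11. The summed signal of 4 meristem homeobox probe sets was 3064 in D11 and 2478 in WT. Of these, 2 (lg3 and lg4b) were at least 2-fold higher in D11, against 9.93% of all probe sets. The ratios of kn1 and knox7 were 1.059 and 0.931. The WT signal of lg4b, 21.59, was not above the control level, which gives a bound of at least 2.16-fold higher in D11. The signal of 3′ over 5′ probe sets of the same transcript is a sign of RNA quality. Over 5 pairs above the control level it was from 1.34 to 4.88 in D11 and from 1.84 to 3.94 in WT, lower in D11 for 4 of them. Left out as not above the control level were a gapdh pair (3.66 in D11, 2.04 in WT) and an actin pair of an old design (0.183 in D11, 1.15 in WT). The part of tissue makeup and RNA quality in the ratios below was not tested.

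In D11 stems, 1 oxylipin gene stood more than 2-fold above the wild type, the 9-lipoxygenase gene lox3, and none of the 12 probe sets differed 5-fold, the threshold of the study's methods. All 7 probe sets of the OPR genes had lower deposited signals in D11, of which 4 were above the control level in both arrays and between 1.13-fold and 1.35-fold lower, and the other 3 were not above it in at least 1 array. The lipoxygenase gene lox1 and the allene oxide synthase gene aos1 had strong signals that differed by at most 1.10-fold. The share of all probe sets past 2-fold was 9.93% for higher and 9.83% for lower signals in D11, so 1 of 12 higher and 0 of 12 lower is not more than the background. For 5-fold the shares were 2.26% higher and 2.57% lower, against 0 of 12 in either direction. A lower signal of any size in D11 was found for 10 of the 12 probe sets, against 47.9% of all probe sets. The count was 8 of 12 with quantile normalization and with lowess centring, against 51.7% and 48.9% of all, and 5 of 12 with housekeeping scaling, against 30.9%.

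In the RefSeq table, which is built on B73 (Zm-B73-REFERENCE-NAM-5.0) and gave names and gene order alone, 25 genes bear such a name, and 9 of them had a probe set paired with them. The table holds 12 lipoxygenases, of which 2 were measured, lox1 and lox3. Both belong to the 9 side, with 6 genes in the table. The gene lox6 was placed on neither side and was not paired with a probe set. None of the 5 genes of the 13 side (lox7, lox8 or ts1, lox9, lox10 and lox11) was paired with a probe set. The 13 side was therefore represented by enzymes after the lipoxygenase step, aos1, hpl1, opr7 and opr8, and the lipoxygenases of both sides could not be compared with each other. The platform annotation that pairs probe sets with genes is old, and probe sets without a gene name may read further family members.

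**Figure D1:**
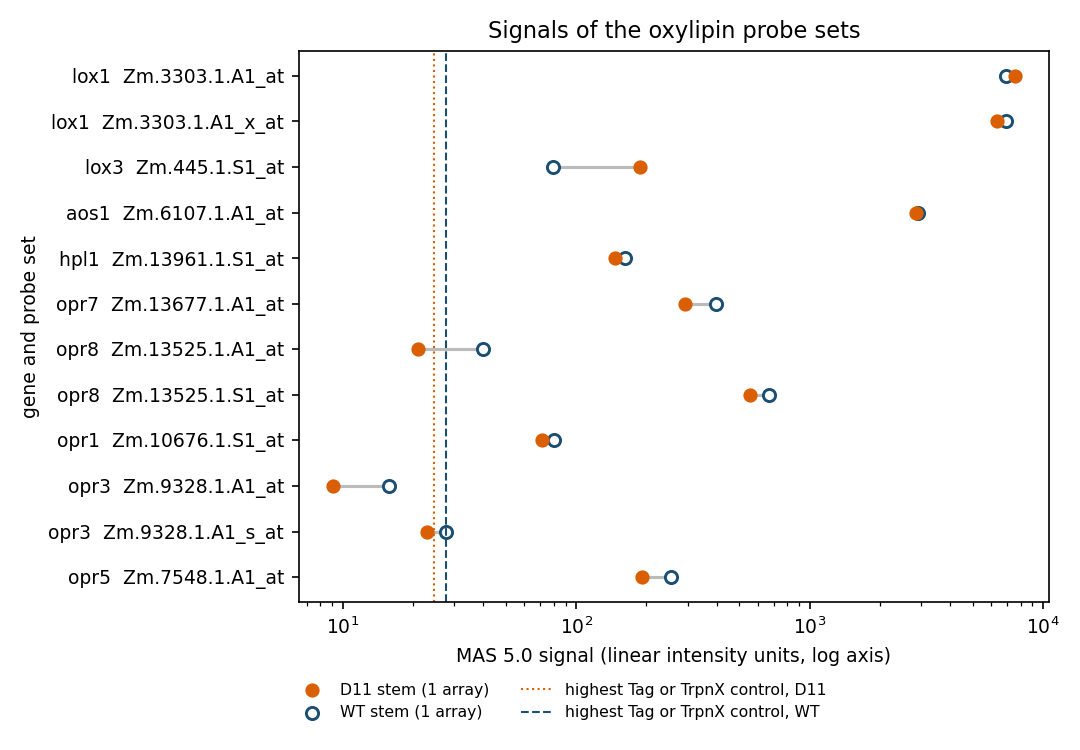
MAS 5.0 signal (log axis) of each of the 12 oxylipin probe sets in the D11 stem (filled) and the WT stem (open), 1 array each, with the highest Tag or TrpnX control of each array as a vertical line. The gap between both points is widest for lox3 among probe sets to the right of the lines, whereas the weak opr8 probe set and both opr3 probe sets lie at or left of a line in at least 1 array.

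The gene lox3 (Gene ID 542495) codes for a 9-lipoxygenase. Its 1 probe set gave 187.3 in D11 stems, against 79.56 in WT stems. Both values were above the control level and under the median of their array. The signal was 2.35-fold higher in D11, a log2 ratio of 1.24. Over the probe sets above the control level in both arrays, 6.2% were at least 2-fold higher in D11. In the class of 881 probe sets with a geometric mean signal from 90.5 to 130.2, to which lox3 belongs, 13.1% were at least 2-fold higher and 9.1% had a ratio at least as high as that of lox3, with an SD of the log2 ratios of 0.91. Ratios of this size were thus not rare among probe sets of like brightness. The neighbouring gene on the chromosome is lox4, with no protein-coding gene between them. Such neighbouring copies can be alike in sequence, and whether the probes of lox3 also read lox4 is not known from the files. Of 2 unnamed probe sets that share the cluster number of lox3 in their IDs, neither was above the control level in either array.

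The gene lox1 (Gene ID 541856) codes for a lipoxygenase that was counted here with the 9 side, though the enzyme is known to act at both carbons. Its 2 probe sets were among the strong signals of both arrays. The first gave 7565 in D11 stems, against 6904 in WT stems, a ratio of 1.10. The second, whose suffix (x_at) says that its probes can bind further transcripts, gave 6359 in D11 stems, against 6917 in WT stems, a ratio of 0.919. The 2 probe sets thus differed from the wild type in opposite directions by small amounts, and their log2 ratios lay 0.25 apart, less than the median of 0.29 for probe sets of the same gene. With quantile normalization, lowess centring or housekeeping scaling both probe sets had log2 ratios above 0. The gene next to lox1 is lox2, with no protein-coding gene between them.

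On the 13 side, aos1 (Gene ID 542150), for the allene oxide synthase that turns the 13-hydroperoxide into the precursor of OPDA, gave 2860 in D11 stems, against 2901 in WT stems. The ratio was 0.986. This is the closest agreement between both arrays among the 12 probe sets, and its log2 ratio of -0.02 turned to 0.09 with quantile normalization and with lowess centring and to 0.25 with housekeeping scaling. The gene hpl1 (LOC542163), for the hydroperoxide lyase that cleaves the same substrate, gave 146.4 in D11 stems, against 161.4 in WT stems, a ratio of 0.907. Both hpl1 signals were under the median of their array, and the log2 ratio of -0.14 was -0.37 with quantile normalization, -0.30 with lowess centring and 0.13 with housekeeping scaling. No direction that holds under these scalings can be given for aos1 or hpl1, the genes of the enzymes that compete for the 13-hydroperoxide.

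The genes opr7 (Gene ID 732830) and opr8 (Gene ID 732734) code for the OPDA reductases that maize needs for jasmonate, and loss of both is known to feminize the tassel. The probe set of opr7 gave 293.2 in D11 stems, against 396.4 in WT stems. This was 1.35-fold lower in D11, a log2 ratio of -0.44. The brighter probe set of opr8 gave 556.4 in D11 stems, against 667.9 in WT stems, 1.2-fold lower in D11. The second probe set of opr8 had 20.96 in D11, not above the control level, and 40.05 in WT. For this probe set the signal was at least 1.62-fold lower in D11, taking the D11 control level in place of the D11 signal. The probe sets of opr7 and opr8 had the same direction in the deposited values, and the 2 of opr8 lay 0.67 apart on the log2 scale. With housekeeping scaling the log2 ratio of the brighter opr8 probe set was 0.01 and that of opr7 was -0.17.

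The other OPR genes on the array, opr1 (Gene ID 732815), opr3 (Gene ID 732731) and opr5 (Gene ID 732829), belong to the same enzyme family, and they are not known to be needed for jasmonate. The gene opr5 gave 191.0 in D11 stems, against 253.5 in WT stems, 1.33-fold lower in D11 with a log2 ratio of -0.41, close to that of opr7. The gene opr1 had 71.43 in D11 and 80.68 in WT, 1.13-fold lower. Between opr1 and opr2 lies 1 protein-coding gene, so opr2 is a near neighbour of opr1 and was not itself paired with a probe set. Of the 2 probe sets of opr3, 1 was not above the control level in either array, with 9.069 in D11 and 15.76 in WT. The other, with the suffix s_at for probes shared by several transcripts, had 22.87 in D11, not above the control level, and 27.69 in WT, just above it. A bound for the s_at probe set, 1.12-fold lower, comes from the gap between the control levels, 27.62 in WT and 24.69 in D11. It says nothing of opr3, and no fold change or direction of opr3 is given from these weak signals.

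Considered together, the 7 OPR probe sets had a median log2 ratio of -0.41, and the 4 above the control level in both arrays had -0.34. The median over all probe sets was 0.03. Each of the 7 ratios lay below that median, with between 10.7% and 36.3% of all probe sets having a lower ratio. Under median centring, quantile normalization, lowess centring and an added offset all 7 log2 ratios were negative, while housekeeping scaling left 5 negative and turned opr1 and the brighter opr8 probe set to 0.09 and 0.01. With that scaling the median over all probe sets itself stood 0.27 higher. All 7 were below the median of all probe sets under each of these 5 treatments. For median centring and housekeeping scaling this was fixed in advance, since each shifts every log2 ratio by the same amount. Raising weak signals to the control level says nothing of opr3, whose ratios are then set by the control levels themselves. The other 5 probe sets were negative under it, against 57.4% of all. Every one of the 4 ratios above the control level was smaller than 1.5-fold, and the largest of them, that of opr7, had 13.8% of the probe sets of its signal class below it.

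**Figure D2:**
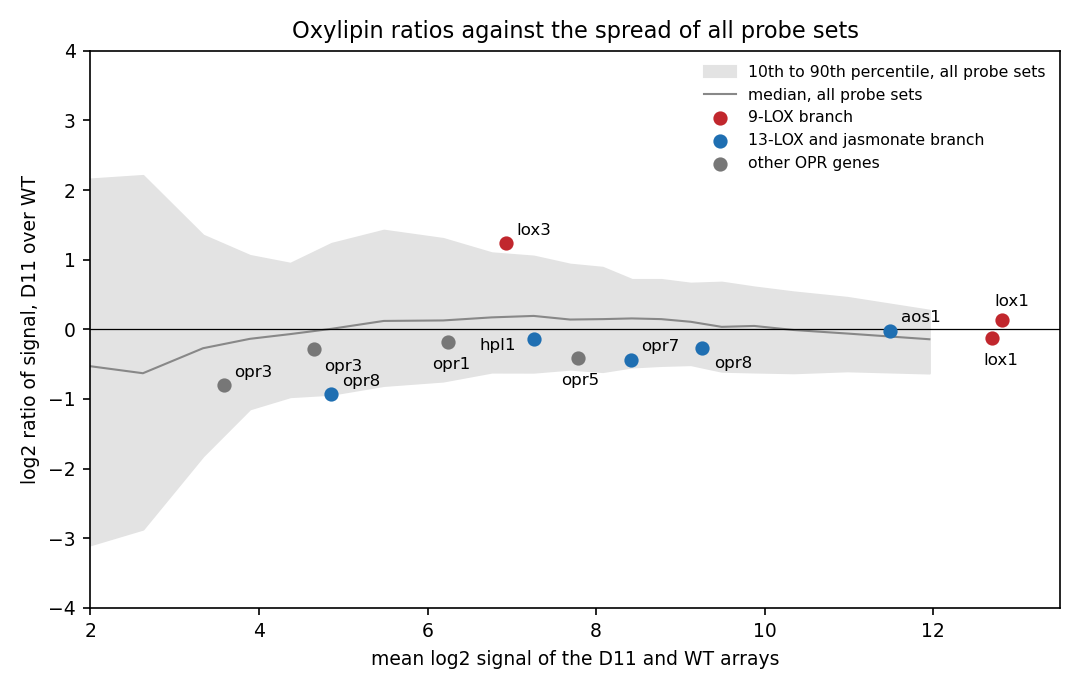
Log2 ratio of D11 over WT against the mean log2 signal of both arrays for the 12 oxylipin probe sets, coloured by branch; the grey band runs from the 10th to the 90th percentile and the line marks the median of all probe sets in 20 classes of equal size, drawn at the median signal of each class. Of the 12 points, 10 lie within the central 80% of their own class, lox3 lies above it and the weak opr8 probe set just below it.

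To set the 9 side against the 13 side, the median log2 ratio was taken over the probe sets of each. The 9 side, with 3 probe sets of lox1 and lox3, had a median of 0.13, and 2 of 3 were higher in D11. The 13 side, with 5 probe sets of aos1, hpl1, opr7 and opr8, had a median of -0.26, and 5 of 5 were lower in D11. Of all probe sets, 47.9% were lower in D11. The gene opr8 entered with both of its probe sets, and the weaker was not above the control level in D11. The difference of the medians was 0.40, which is 9 side minus 13 side. Among probe sets above the control level in both arrays, 7 of 9 oxylipin probe sets were lower in D11, against 45% of all such probe sets, and the 13 side had 4 of 4 lower with a median of -0.20. The ratios of both sides overlapped, as the lower lox1 ratio of -0.12 lies between those of aos1 and hpl1. Without lox3 the difference was 0.27, and without lox1, whose enzyme has both specificities, it was 1.499, since lox3 alone then stood for the 9 side. With quantile normalization and with lowess centring aos1 turned positive, leaving 4 of 5 negative on the 13 side, against 51.7% and 48.9% of all. With housekeeping scaling 2 of 5 were negative, against 30.9% of all. The difference stayed positive without lox3, without lox1, with quantile normalization and with lowess centring. Housekeeping scaling cannot change it, as it shifts every log2 ratio by the same amount. With so few genes on 2 arrays the difference describes these samples alone.

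**Figure D3:**
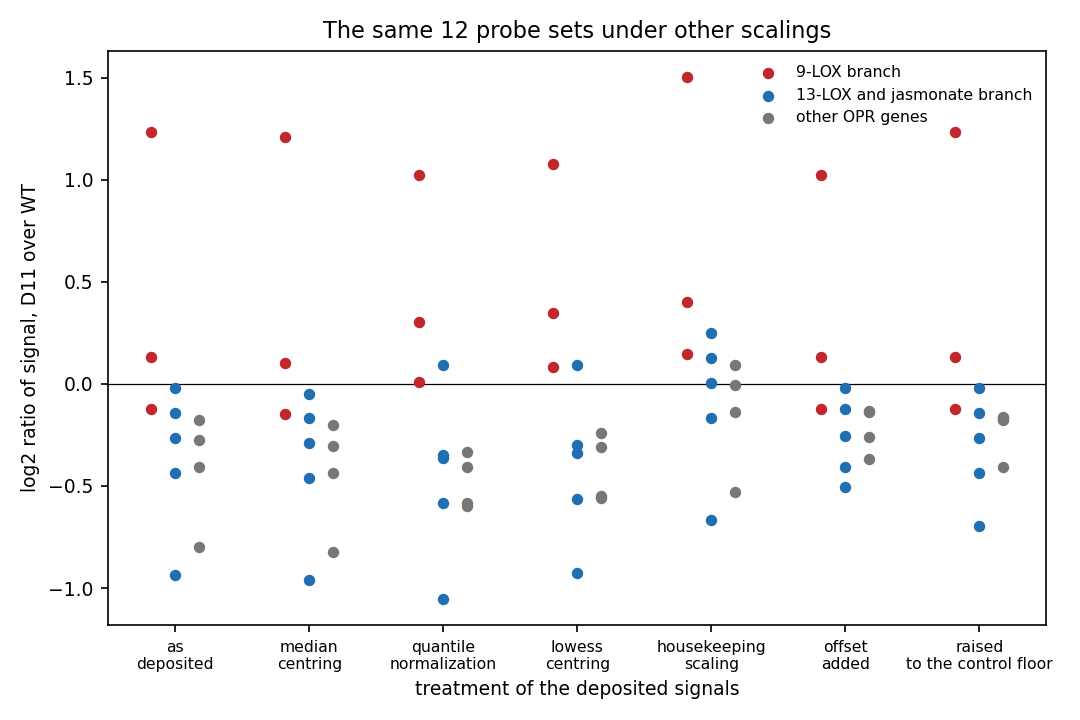
Log2 ratio of D11 over WT for the 12 probe sets in the deposited signals and under 6 other treatments, with the 9-LOX branch, the 13-LOX and jasmonate branch and the other OPR genes side by side. The uppermost red point is lox3, between 1.02 and 1.505 in all columns, while housekeeping scaling moves every point up by 0.27 and brings 5 of them above 0, the x_at probe set of lox1, aos1, hpl1, opr1 and the brighter opr8 probe set.

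The further genes of the pathway came from lists of names drawn up with earlier results of these data known, and those named from each list were picked by the size of their ratio where a list was long. Upstream, the genes of substrate supply had small ratios. The desaturase gene fad7 (LOC542222), whose product makes linolenic acid in plastids, had 655.4 in D11 and 670.4 in WT, FAD8 for a second such desaturase had 117.7 in D11 and 166.2 in WT, and PLD1 for a phospholipase D had 675.5 in D11 and 745.1 in WT. All 3 were lower in D11, against 47.9% of all probe sets, with a median log2 ratio of -0.14. The largest ratio was that of FAD8, 1.412-fold lower. With housekeeping scaling the median was 0.13.

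Between AOS and OPR, the allene oxide cyclase gene aoc1 had 2 probe sets that pointed in opposite directions. The first had 289.4 in D11 and 359.6 in WT, 1.24-fold lower in D11. The second had 997.4 in D11 and 674.5 in WT, 1.48-fold higher in D11. All 4 signals were above the median of their array, so that no direction can be given for aoc1. Over the 6 probe sets of aos1, aoc1, opr7 and opr8, which code for successive steps to jasmonate, 5 were lower in D11 and 1 was higher in the deposited values, with a median log2 ratio of -0.29, against 47.9% of all probe sets lower. The 5 include the weak opr8 probe set, not above the control level in D11. With housekeeping scaling aos1 and the brighter opr8 probe set turned positive, to 0.25 and 0.01. The ratio of aos1 was also positive with quantile normalization, 0.095, and with lowess centring, 0.091. The sex determination gene ts2, for a short-chain dehydrogenase, had 28.8 in D11 and 17.53 in WT, and with the WT control level in place of the WT signal it was at least 1.04-fold higher in D11, which is no more than a bound from a weak signal. None of the 3 probe sets of this list, those of aoc1 and ts2, was 2-fold higher or lower. The 1 gene of jasmonate signaling with a probe set, MYC2a (LOC541694), related to the MYC2 transcription factor of the Arabidopsis jasmonate response, had 301.3 in D11 and 364.5 in WT, 1.21-fold lower in D11.

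The list of wound and jasmonate responsive genes was matched by name, and the terpene synthase genes entered it by their tps names alone. Whether its 6 genes respond to wounding or jasmonate in these stems was not tested. Of the 6, 4 had deposited ratios of at least 5-fold higher in D11, against 2.26% of all probe sets. None was 2-fold lower, against 9.83%. As this list was made with earlier results known, its count is a description and no support for a direction. None of these 4 was above the control level in WT, and of the 6 only igl1 was above it in both arrays. Lower bounds against the WT control level were 2.57-fold for wip1 (LOC542729), a wound-induced proteinase inhibitor gene with 70.83 in D11 and 10.2 in WT, and 4.37-fold for the terpene synthase gene tps6 (LOC542688) with 120.7 in D11 and 8.849 in WT. The terpene synthase gene TPS9 had 472.0 in D11 and 9.489 in WT, a bound of 17.1-fold. In contrast, igl1, for the lyase that releases free indole after attack, had 196.9 in D11 and 206.1 in WT. The protease gene mir1 and TPS4, named after their values were seen, were not above the control level in either array, and TPS4 is 1 of the 4 counted at 5-fold. The median log2 ratio of the 6 was 3.28 in the deposited values and 0.65 once signals under the control level were set to it. For wip1, tps6 and TPS9 the signal was thus above the control level in D11 alone, and no relation of these genes to the oxylipin enzymes was tested.

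**Figure D4:**
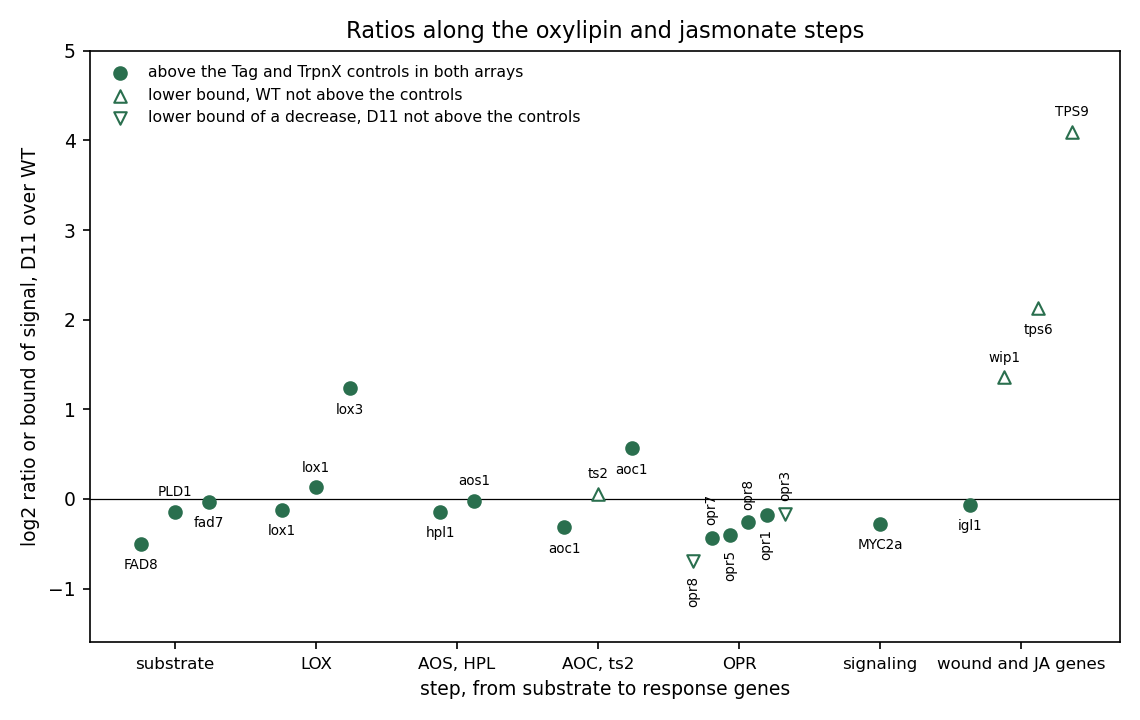
Log2 ratio of D11 over WT for oxylipin and jasmonate probe sets in the order of the steps, with filled circles where both signals were above the Tag and TrpnX controls and open triangles for bounds where 1 of them was not; probe sets above the controls in neither array (mir1, TPS4 and 1 of opr3) are left out. The enzyme steps lie between -0.70 and 0.56 apart from lox3 at 1.24, while the bounds of wip1, tps6 and TPS9 reach 1.36, 2.13 and 4.10. The triangle of opr3 shows the gap between the control levels of the arrays and no change of opr3.

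With 2 arrays, the genes nearest in pattern can be given only as the distance between pairs of log2 signals. As signals of different probe sets depend on their probes, nearness shows no likeness between the genes. The distance was taken to the other singly named genes for the 9 oxylipin probe sets above the control level in both arrays. The genes nearest to lox3 were nfc104 at a distance of 0.06 (183.2 in D11 and 76.62 in WT) and the response regulator gene RR7 at 0.11 (174.8 in D11 and 77.07 in WT). Nearest to opr7 were Smh6 at 0.04 and PDK1 at 0.05, and nearest to opr5 were rnc1 at 0.01 and RR10 at 0.02. Each of the 9 had 2 such neighbours within 0.11.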

How the data were processed

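RNA from D11 and Mo17 (WT) stems was measured on 1 array each. The authors deposited linear intensities computed by MAS 5.0 (background correction, probe set summary, array scaling), in GeneSpring per the methods and with MAS5 and Affymetrix Expression Console per the submitters' processing notes. They were used as deposited, without detection calls. Of 17734 probe sets, 113 controls were set aside. Names came from the platform annotation and from RefSeq by gene number: 1452 probe sets had 1 gene, 1 had several and 16168 had none. Sequences were not used here.

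The members and lists were chosen with earlier results of these data known. All probe sets of the members were named, with up to 4 genes per pathway list by size of the log2 ratio among those above the control level in at least 1 array, and the 2 genes nearest in log2 signals to each member above it in both. Left out by name were 3 accidental matches (fdad1, zag2 and an ent-kaurene synthase gene that also goes by tps1). No anther or pollen marker had a named probe set. The number of arrays limits the precision, and without replicates no test was run. Signal classes divided all probe sets by mean log2 signal into 20.

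The alternatives were median centring, quantile normalization, lowess centring (span 0.3), scaling by the median of 31 housekeeping probe sets, an offset of 24.74 (25th percentile), weak signals raised to the control level, signal minima, leaving out shared probe sets and counting genes once. The counting step was tested at 5-fold on simulated data, with changes planted in brighter probe sets alone. Its count at 2-fold was not tested. Python 3.11.15, numpy 2.4.6, pandas 2.3.3 and statsmodels 0.14.6 were used.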

Additional observations from a re-analysis of the deposited data

Results flagged for a closer look

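A signal appeared in a probe set that no comparison used. It has the cluster number of lox1 in its ID and is paired with no gene in the annotation. Its signal was 4614 in D11 and 4576 in WT, far above the Tag and TrpnX controls. The ratio was 1.01, which lies between those of the lox1 probe sets. Which transcript it reads was not tested.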

How the results depend on the processing

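No paired analysis was possible because each genotype had 1 array. A median was taken as moved where it changed by more than 0.20, the SD of the log2 ratios of the spiked transcripts. The 9-side median of 0.13 became 0.35 with lowess centring, 0.40 with housekeeping scaling, 0.68 without shared probe sets and with the brightest probe set per gene, and 0.62 with the mean per gene. The difference between the sides, 0.40, became 0.67 with quantile normalization, 0.69 with lowess centring, 0.95 without shared probe sets, 0.89 with the brightest probe set and 0.91 with the mean per gene. Leaving out lox1, an alternative chosen after seeing the data like that without lox3, gave 1.24 for the 9-side median and 1.499 for the difference. Housekeeping scaling gave 0.006 for the 13-side median and 0.05 for the median of all 12, which was -0.22. The count of probe sets at least 2-fold higher was 0 among signals above their array's median in D11 and WT alike and 0 without lox3, and the count at least 2-fold lower was 1 with quantile normalization, the weak opr8 probe set. The wound and jasmonate list had a median of -0.066 among signals above the array median, where only igl1 was left. Across the 6 treatments of the signals, 48 of 72 values of single members stayed within 0.20. This count is no measure of how stable single members are. Median centring shifts every log2 ratio by -0.03 and housekeeping scaling by 0.27, so under both the outcome was fixed in advance for every member. Weak signals limit the direction of opr3 and the size of the ratio of the second opr8 probe set.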
